A study of Mus musculus with 12 samples.

Results

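Tumours grown from melanoma line Tm1N3 were compared with tumours grown from melanoma line Tm1G3, both in wild-type mice. The members were picked by their labels: the 3 arrays labelled as wild-type hosts of Tm1N3 and the 3 labelled as wild-type hosts of Tm1G3. They are 6 of the 12 arrays of the series. The comparison and the gene lists below were chosen with earlier results of these data known. Every probe set of the deposited table, 1246 in all, was compared as the Tm1N3 level minus the Tm1G3 level. The labels describe Tm1N3 as expressing galectin-3 and Tm1G3 as silenced for it. The comparison asks which tumour transcripts differ between these lines while the host can make galectin-3. As each state is 1 line, the comparison cannot tell galectin-3 from any other difference between the lines. The other 6 arrays are of the same lines in hosts whose galectin-3 gene is knocked out, and are set beside it at the end. All 12 arrays entered 1 fit, so the knockout-host arrays also enter the SE and p of each difference in wild-type hosts. By the series' design text the expressing cells came from the silencing line given a plasmid that codes for galectin-3, and the hosts were syngeneic. Whether a line is a clone or a pool, the age and sex of the mice, and the time of tumour growth are not given in the sources used here.

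Galectin-3, encoded by Lgals3, is a lectin that binds beta-galactoside sugars on glycoproteins and glycolipids. It is found in the cytoplasm and nucleus and is also secreted, where it can crosslink receptors and bind the extracellular matrix. Macrophages and other host cells make it as well as many tumours. The sugars that it recognises are built by galactosyltransferases and N-acetylglucosaminyltransferases, and can be capped by sialyltransferases. The array holds genes of this machinery together with lectins, proteoglycans, cytokines, chemokines, growth factors and their receptors.

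Values are log2 levels after RMA (background correction, quantile normalization and probe summary), so a difference of 1 is a 2.00-fold difference in signal. Pearson correlations across probe sets between the 6 arrays ran from 0.982 to 0.996. The medians of the 6 arrays lay between 5.52 and 5.60, and no array repeated another's values. Among markers of melanocytes only Kit and Mcam are among the named probe sets, Mcam at 9.54 to 10.65 and Kit at 5.62 to 6.36, so that the label melanoma could not be checked against Tyr, Pmel or Mlana. These are bulk samples, in which fewer cells of a type and less RNA per cell cannot be told apart. The labels do not say that each replicate is a separate animal, so p-values speak for the spread among these samples alone, and 3 arrays a group limit their precision.

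Lgals3 itself was read at 9.80, 9.72 and 10.39 in Tm1N3 replicates 1 to 3 and at 9.52, 9.33 and 9.99 in Tm1G3 replicates 1 to 3. The groups overlapped, with Tm1G3 replicate 3 above replicates 1 and 2 of Tm1N3. The difference was 0.36 ± 0.33 (log2, SE; 95% interval -0.37 to 1.08), with p = 0.3 in a two-sided exact permutation test, where 3 arrays against 3 cannot go below 0.1. Its probe set can also read transcripts that share sequence, and the place of its probes relative to the plasmid's insert was not known here. In knockout hosts Lgals3 was read at 9.35, 9.69 and 10.55 in Tm1N3 and at 9.15, 9.80 and 8.98 in Tm1G3. These groups overlapped too, and the difference was 0.55 ± 0.33 (limma adjusted p = 0.696). The level of this gene in the tumours thus did not settle the labels of the lines, whose directions below are those of the labels.

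An array of a Tm1G3 tumour, replicate 1, stood apart from the other 5 in inflammatory genes. By a rule chosen after its values were seen, 18 probe sets were more than 1 log2 unit above all 5 other arrays on it. The same count was 0 on each Tm1N3 array, 1 on Tm1G3 replicate 2 and 2 on Tm1G3 replicate 3. Values without Tm1G3 replicate 1 are given below beside some of the larger differences that it moved, in either direction.

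Of the 1246 probe sets 11 passed a Benjamini-Hochberg adjusted p of 0.05 in limma, which is 0.883% of those tested. Of these 5 were higher in Tm1N3 tumours (0.401%) and 6 were lower (0.482%), and all 11 carried a gene symbol. They were cytokine and receptor genes (Il18, Il3ra, Il17b and Il17rd), enzymes of glycan synthesis (Hs3st1, B3galt4, Mgat3 and St6galnac6), an endolysosomal ion channel (Mcoln3), a basement membrane protein (Frem1) and a growth factor of the BMP family (Bmp15). Unadjusted p was under 0.05 for 163 probe sets (13.1%), and the 3 and 3 arrays did not overlap for 211 (16.9%), of which 105 were higher (8.43%) and 106 lower (8.51%) in Tm1N3. The median difference over all probe sets was 0.00. That split of calls became 10 higher and 5 lower when the deposited values were quantile normalized again, and 4 higher and 2 lower when array medians were set equal. Differences were positive for 50.5% of probe sets and negative for 49.5%.

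**Figure D1:**
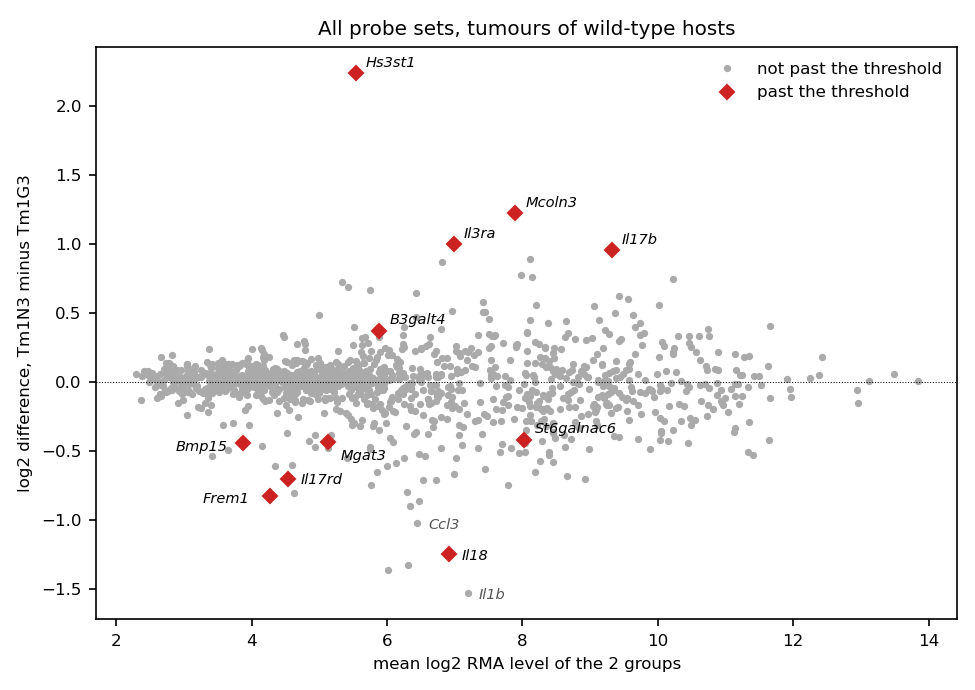
Each point is a probe set, plotted by its mean log2 RMA level over the Tm1N3 and Tm1G3 groups of wild-type hosts (horizontal axis) and its log2 difference, Tm1N3 minus Tm1G3 (vertical axis), with the 11 that passed the adjusted p of 0.05 as named diamonds. Hs3st1 lies highest at 2.24 and Il18 is the lowest diamond at -1.25, while Il1b at -1.53 and Ccl3 at -1.02 lie among the grey points that did not pass.

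The promoters of 4 called genes are printed because Il18, Frem1 and Mcoln3 were the calls that rested least on single arrays and Hs3st1 had the largest difference. Each is the 250 bases before the RefSeq transcription start in build GRCm38.p6, read along the gene's own strand, with motif matches in capitals.
Il18: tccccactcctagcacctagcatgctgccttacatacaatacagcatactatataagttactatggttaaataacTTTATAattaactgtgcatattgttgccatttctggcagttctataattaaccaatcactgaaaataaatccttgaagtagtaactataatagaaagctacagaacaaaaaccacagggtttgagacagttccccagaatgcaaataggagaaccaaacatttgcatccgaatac
Frem1: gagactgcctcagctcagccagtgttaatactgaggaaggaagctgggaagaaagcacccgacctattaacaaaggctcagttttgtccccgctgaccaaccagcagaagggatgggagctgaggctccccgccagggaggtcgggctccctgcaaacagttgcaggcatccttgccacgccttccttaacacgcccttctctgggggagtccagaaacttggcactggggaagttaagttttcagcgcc
Mcoln3: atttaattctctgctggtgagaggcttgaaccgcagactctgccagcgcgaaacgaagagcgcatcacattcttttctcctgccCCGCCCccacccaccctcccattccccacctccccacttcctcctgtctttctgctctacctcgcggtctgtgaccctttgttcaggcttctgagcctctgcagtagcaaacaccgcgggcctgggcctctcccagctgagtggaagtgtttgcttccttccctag
Hs3st1: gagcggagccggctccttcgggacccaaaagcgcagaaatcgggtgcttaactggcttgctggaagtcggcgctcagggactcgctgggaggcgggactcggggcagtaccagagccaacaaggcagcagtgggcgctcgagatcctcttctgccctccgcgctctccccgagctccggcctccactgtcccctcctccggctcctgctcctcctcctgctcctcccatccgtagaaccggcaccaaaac
They lie at chr9:50554450-50554699 on the plus strand for Il18, chr4:83052167-83052416 on the minus strand for Frem1 (the farther upstream of 2 listed starts), chr3:146121541-146121790 on the plus strand for Mcoln3, and chr5:39644632-39644881 on the minus strand for Hs3st1. Guanine and cytosine made up 35.6% of the Il18 bases, 56.8% of those of Frem1, 58.0% of those of Mcoln3 and 66.0% of those of Hs3st1. Letters were searched on both strands for the E-box CACGTG, the M-box core CATGTG, the AP-1 site TGANTCA, the GC box GGGCGG and the TATA box TATAAA in windows that also hold 50 bases after the start. The capitals in Il18 are TATAAA read on the opposite strand, and those in Mcoln3 are GGGCGG read on the opposite strand. Of the 9 called genes with a promoter in the table, 4 held GGGCGG (Mcoln3, Il3ra, B3galt4 and Il17rd), which 35.7% of all 32851 promoters hold, and 2 held TATAAA (Il18 and Bmp15), against 13.6%. None of the 9 held the E-box, the M-box core or the AP-1 letters, which 7.15%, 14.2% and 7.81% of all promoters hold. A match is a description of these letters only.

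Among the cytokines Il18 was lower in tumours of Tm1N3. Interleukin 18 is made as an inactive precursor, is cut to its active form by caspase-1 and induces interferon gamma in T and NK cells. Il18 was read at 6.29, 6.20 and 6.39 in Tm1N3 replicates 1 to 3 and at 7.37, 7.60 and 7.64 in Tm1G3 replicates 1 to 3. All 3 Tm1N3 arrays lay about 1 log2 unit below the lowest Tm1G3 array. The means of 6.29 ± 0.10 and 7.54 ± 0.14 (SD, n = 3 each) differed by -1.25 ± 0.11, a 2.37-fold lower level in Tm1N3 (95% interval -1.50 to -0.995, limma adjusted p = 0.000593). Without the Tm1G3 array that stood apart the difference was -1.33 (limma adjusted p = 0.00102). The receptor chains Il18r1 and Il18rap differed by -0.09 and -0.02 and did not pass. Ifngr2, a chain of the interferon gamma receptor, differed by -0.32 ± 0.08 (limma adjusted p = 0.0736), with its 3 and 3 arrays apart, and Il12rb1, a receptor chain of interleukins 12 and 23, differed by -0.54 ± 0.18 (limma adjusted p = 0.201).

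Il3ra, the ligand-binding chain of the interleukin 3 receptor, rose in Tm1N3 tumours. It was read at 7.72, 7.32 and 7.40 in Tm1N3 and at 6.71, 6.29 and 6.46 in Tm1G3, groups that did not overlap. The difference was 1.00 ± 0.16, a 2.00-fold higher level (limma adjusted p = 0.0227). Of 7 other measured genes of the interleukin 3, interleukin 5 and GM-CSF system none passed, with differences from -0.38 for Csf2rb, the shared signalling chain, to 0.22 for Csf2ra, the GM-CSF binding chain. Both ends of this range moved without Tm1G3 replicate 1, the array that stood apart, to 0.10 for Csf2rb and 0.41 for Csf2ra.

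Of 11 measured genes of the interleukin 17 family 1 was called higher and 1 lower in Tm1N3. Over all probe sets 0.401% were called higher and 0.482% lower. Il17b, a ligand of this family that binds Il17rb, was read at 9.61, 9.89 and 9.89 in Tm1N3 and at 9.12, 8.96 and 8.43 in Tm1G3. Every Tm1N3 array was higher than every Tm1G3 array, and the difference was 0.96 ± 0.17, or 1.94-fold (limma adjusted p = 0.0302). Il17rd, a receptor-like protein also known as Sef that restrains FGF signalling, went the other way, at 4.01, 4.37 and 4.19 in Tm1N3 against 4.90, 5.06 and 4.73 in Tm1G3. Its difference was -0.71 ± 0.13, a 1.63-fold lower level (limma adjusted p = 0.0321), again with no overlap. The other 5 ligands differed by -0.21 (Il17d) to 0.04 (Il25) and the other 4 receptors by -0.40 (Il17rc) to 0.03 (Il17rb), and none of these 9 passed.

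Hs3st1 had the largest difference of the 11. It encodes a heparan sulfate 3-O-sulfotransferase, the enzyme that makes the antithrombin binding site of heparan sulfate chains. Hs3st1 was read at 7.07, 6.99 and 5.91 in Tm1N3 and at 4.65, 4.36 and 4.25 in Tm1G3. Replicate 3 of Tm1N3 was more than 1 unit below the other 2, yet above every Tm1G3 array. The means of 6.66 ± 0.65 and 4.42 ± 0.20 (SD, n = 3 each) differed by 2.24 ± 0.37, or 4.72-fold (95% interval 1.42 to 3.06, limma adjusted p = 0.0229). Its probe set can read transcripts that share sequence. The 3 Tm1G3 values were low on this array, just above 4.22, the bound of the lowest 25% of probe sets by mean level. The 5 other 3-O-sulfotransferases measured had differences from -0.02 (Hs3st3b1) to 0.40 (Hs3st6), and none passed. Hs3st6 was read at 5.93, 5.68 and 5.53 against 5.10, 5.43 and 5.40, with no overlap and a limma adjusted p of 0.139. Of 29 genes for heparan sulfate synthesis and editing 1 was called, against 0.883% of all probe sets, 15 had positive and 14 negative differences, and the median was 0.03, against -0.01 over all 909 named genes.

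Mcoln3 rose in Tm1N3 tumours. It encodes mucolipin 3, a calcium-permeable channel of endosomes and lysosomes. Mcoln3 was read at 8.38, 8.77 and 8.34 in Tm1N3 and at 7.20, 7.60 and 7.03 in Tm1G3, so that the lowest Tm1N3 array was above the highest Tm1G3 array. The difference was 1.22 ± 0.18, or 2.33-fold (limma adjusted p = 0.0154). The family's other members did not pass, with Mcoln1 at -0.00 and Mcoln2 at -0.20, or -0.0048 without Tm1G3 replicate 1. Of 25 lysosomal hydrolases and their activators none was called, but 10 had arrays that did not overlap, 6 higher and 4 lower in Tm1N3, and the median was 0.07. Over all probe sets 0.883% were called and 16.9% did not overlap, 8.43% higher and 8.51% lower. Galc, which removes galactose from galactosylceramide, was read at 9.79, 10.07 and 9.74 against 9.40, 9.32 and 9.06 and differed by 0.60 ± 0.12 (limma adjusted p = 0.0522). Idua, which cuts iduronic acid from heparan and dermatan sulfate, differed by 0.51 ± 0.13 and Arsb, a sulfatase of dermatan sulfate, by -0.42 ± 0.11.

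Of the matrix genes Frem1 was lower in Tm1N3 tumours. Frem1 is an extracellular protein that helps to hold epithelia to the basement membrane in the Fraser complex. Frem1 was read at 3.70, 3.90 and 3.95 in Tm1N3 and at 4.72, 4.61 and 4.72 in Tm1G3. Both groups were tight and did not overlap. The difference was -0.83 ± 0.08, a 1.78-fold lower level (limma adjusted p = 0.000901). All 6 values are low on this array, with Frem1 near the lowest 25% of probe sets, which begins below 4.22. Fbln5, an elastic fibre protein, went the other way at 5.55, 5.94 and 5.61 against 5.00, 5.00 and 4.93, a difference of 0.72 ± 0.16 that did not pass (limma adjusted p = 0.0603).

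Bmp15, a growth factor best known from the oocyte, was at 3.68, 3.65 and 3.60 in Tm1N3 and at 4.09, 3.97 and 4.20 in Tm1G3, all within the dimmest 25% of probe sets. Its difference was -0.44 ± 0.07 (1.36-fold lower, limma adjusted p = 0.0229), and the arrays did not overlap. The 19 other BMP and GDF ligands differed by -0.12 (Gdf1) to 0.23 (Gdf10), with no call. Of 35 genes of the TGF beta, activin and BMP systems, 21 had positive and 14 negative differences with a median of 0.03. Tgfbr1, the type I receptor for TGF beta, had the highest at 0.55 ± 0.14 (limma adjusted p = 0.0829), and Tgfbr3, its co-receptor betaglycan, the lowest at -0.58 ± 0.28 (limma adjusted p = 0.414).

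Enzymes of glycan synthesis gave 3 small calls. B3galt4, which adds galactose in making the ganglioside GM1, was read at 6.10, 6.14 and 5.97 in Tm1N3 and at 5.72, 5.64 and 5.74 in Tm1G3. It rose by 0.37 ± 0.07, or 1.29-fold (limma adjusted p = 0.0302), while 4 other B3galt genes differed by -0.48 (B3galt5) to 0.05 (B3galt2). Mgat3, the enzyme that places a bisecting N-acetylglucosamine on N-glycans, was at 5.08, 4.87 and 4.80 against 5.29, 5.48 and 5.29. It fell by 0.43 on the log2 scale with an SE of 0.08 (1.35-fold lower, limma adjusted p = 0.0454). St6galnac6, a sialyltransferase of gangliosides, was at 7.80, 7.85 and 7.80 against 8.22, 8.18 and 8.30, a tight pair of groups that differed by -0.42 ± 0.08 (1.34-fold lower, limma adjusted p = 0.0484). None of these 3 genes overlapped between the lines. All 3 calls were lost when the deposited values were quantile normalized again (limma adjusted p = 0.0788, 0.0553 and 0.165 in that order) and when array medians were set equal (limma adjusted p = 0.0756, 0.0801 and 0.0828).

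No other member of these families was called. The 8 other Mgat genes differed by -0.02 (Mgat5b) to 0.33 (Mgat2) and the 5 other St6galnac genes by -0.12 (St6galnac4) to 0.05 (St6galnac2), with no call. Of 19 sialyltransferases 13 had negative differences, with a median of -0.06. St3gal3, which caps galactose with sialic acid, was at 8.24, 8.23 and 7.96 against 8.65, 8.66 and 8.65, with no overlap and a difference of -0.50 ± 0.12 (limma adjusted p = 0.0736). The medians were 0.01 for 18 galactosyltransferases, 0.03 for 21 N-acetylglucosaminyltransferases, 0.02 for 10 fucosyltransferases and -0.00 for 23 N-acetylgalactosaminyltransferases. The farthest single values there were Fut11 at 0.67 ± 0.15, B4galt4 at -0.51 ± 0.15, Gcnt2 at 0.52 ± 0.17 and Galnt10 at -0.51 ± 0.11, none past the threshold with all arrays. Without Tm1G3 replicate 1, the array that stood apart, Fut11 was at 0.80 and passed (limma adjusted p = 0.0429). Of 26 genes of chondroitin, keratan sulfate and hyaluronan 19 had positive differences (median 0.08), against 13 (median 0.005) in knockout hosts. Hyal1 had the largest at 0.87 ± 0.27, with no overlap (limma adjusted p = 0.168), and was at 0.58 without Tm1G3 replicate 1. Has3, a hyaluronan synthase, was at 0.32 ± 0.07 (limma adjusted p = 0.0561).

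**Figure D2:**
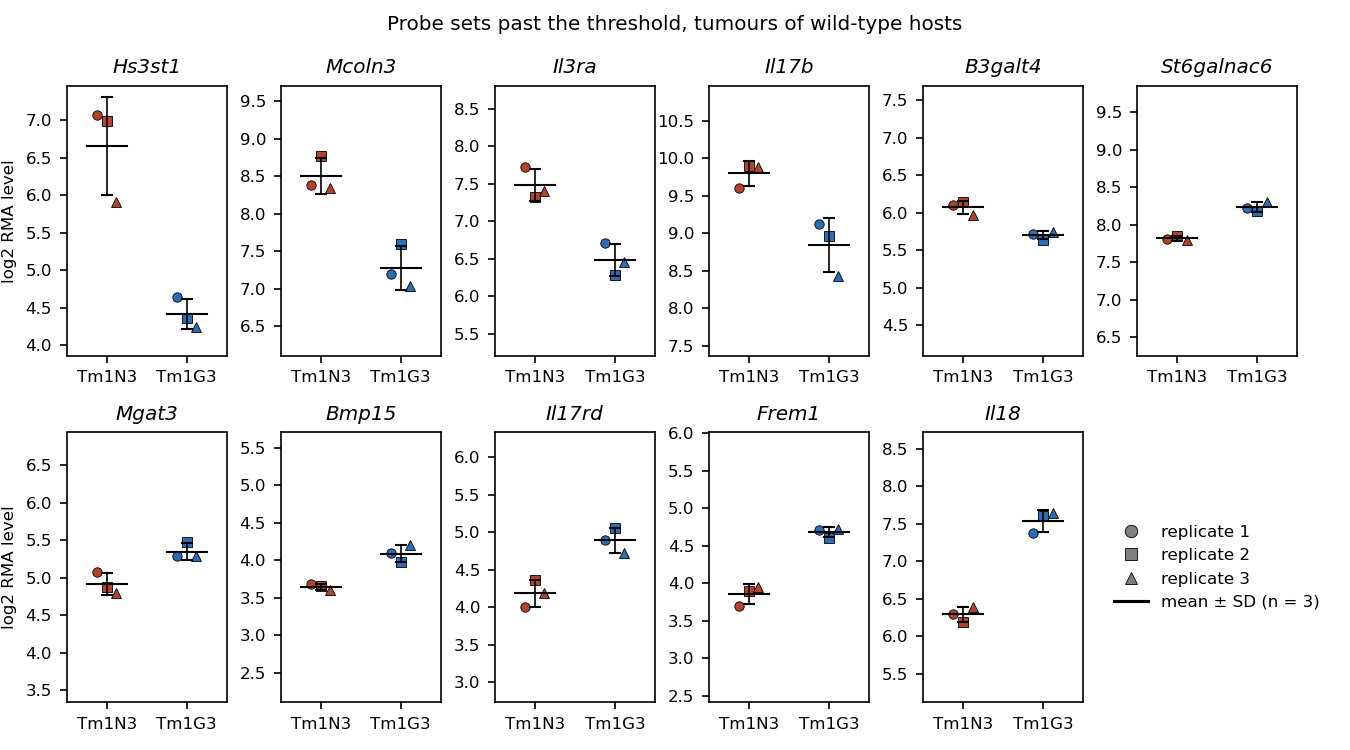
Log2 RMA levels (vertical axes, all of the same span) of the 11 called genes in Tm1N3 and Tm1G3 tumours of wild-type hosts, with a symbol for each replicate, a line for the group mean and error bars for the SD (n = 3). In every gene the Tm1N3 and Tm1G3 points do not overlap, and Hs3st1 spreads most within Tm1N3.

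The 11 calls differed in how far they rested on single arrays. Of 12 fits that left out 1 array, the 6 without a knockout-host array changed the SE and p but none of these differences. The ranges below thus come from the 6 fits without a wild-type array. Il18 and Frem1 passed in each of the 12, with differences from -1.33 to -1.19 and from -0.88 to -0.75. Mcoln3 passed in 11, and was lost without Tm1G3 replicate 3 (difference 1.10). Leaving out that array lost all 9 calls other than Il18 and Frem1, at limma adjusted p from 0.0748 to 0.179. Il3ra, at 0.88 to 1.11, was also lost without Tm1N3 replicate 1 or 3, Tm1G3 replicate 2 or knockout-host Tm1G3 replicate 2. Hs3st1, at 2.03 to 2.61, was also lost without Tm1N3 replicate 1 or 2, Tm1G3 replicate 2 or knockout-host Tm1G3 replicate 2 or 3. Il17b (0.76 to 1.10), Il17rd (-0.80 to -0.62), Bmp15 (-0.50 to -0.38) and B3galt4 (0.34 to 0.42) passed in 5 fits each, Mgat3 (-0.52 to -0.37) in 4 and St6galnac6 (-0.45 to -0.38) in 3. These 6 were all lost without Tm1G3 replicate 3 and without replicate 2 or 3 of Tm1G3 in knockout hosts, and each of the 5 other wild-type arrays ended some of them. Every array other than Tm1N3 replicates 2 and 3 and Tm1G3 replicate 1 of knockout hosts ended at least 2 of the calls when left out. No difference changed sign. A fit of the 6 wild-type arrays alone kept Il18 and Frem1 of the 11, and the other 9 had limma adjusted p from 0.0595 to 0.120. Bmp15 and Il17rd were also lost with array medians set equal (limma adjusted p = 0.0535 and 0.0548).

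Galc was the nearest miss. The 20 named genes with the next smallest p whose arrays did not overlap ran from Galc (limma adjusted p = 0.0522) to an adjusted p of 0.0736. None of them is thus a call in wild-type hosts. Of these 9 were higher in Tm1N3. Besides Galc, Has3, Fut11 and Fbln5 they were Cd72 at 0.78 ± 0.16, Zkscan3 at 0.56 ± 0.14, Angptl2 at 0.45 ± 0.10, Igfbp4 and Asah1, both at 0.33. Cd72, a B-cell and myeloid co-receptor, was read at 8.61, 8.28 and 8.19 in Tm1N3 against 7.51, 7.74 and 7.50. All 3 probe sets of Igfbp4, a binding protein of insulin-like growth factors, gave 0.33 to 0.34.

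The largest negative value among these 20 was Slc35f1, an orphan solute carrier, at -1.33 ± 0.31. It was read at 5.41, 5.98 and 5.56 in Tm1N3 and at 6.61, 7.71 and 6.61 in Tm1G3, replicate 2 of Tm1G3 being the highest by 1.10. Without Tm1G3 replicate 1 its difference was -1.51 (limma adjusted p = 0.0758). Lgalsl, a galectin-like protein, was at 7.17, 7.18 and 7.06 against 7.78, 7.78 and 7.76, a difference of -0.63 ± 0.13 (limma adjusted p = 0.0561). Havcr2, the inhibitory receptor TIM-3 that can bind galectin-9, differed by -0.30 ± 0.07, Il17rc by -0.40 ± 0.09 and Fgf1 by -0.55 ± 0.13. The rest were Galnt10, Pfdn5 at -0.51 ± 0.11, Lta4h, which makes leukotriene B4, at -0.53 ± 0.13, Pmm1 at -0.43 ± 0.10, Rfk at -0.37 ± 0.09 and Rbpj, the DNA-binding partner of Notch, at -0.27 ± 0.07.

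Inflammatory cytokine genes gave large differences that came from a single tumour array. Il1b, the pyrogenic cytokine interleukin 1 beta, was read at 6.71, 5.92 and 6.67 in Tm1N3 and at 11.08, 6.45 and 6.35 in Tm1G3. The high value is replicate 1, 4.37 above the highest other array, and the remaining 5 overlapped. The difference of -1.53 ± 1.03 did not pass (limma adjusted p = 0.632) and was 0.03 without that array. Cxcl2, a neutrophil chemokine, was at 5.54, 4.33 and 6.14 against 10.00, 5.19 and 4.90, and its difference of -1.36 ± 1.26 became 0.29 without replicate 1. Ccl3, a monocyte chemokine, was at 6.13, 5.48 and 6.21 against 8.91, 5.83 and 6.13, and went from -1.02 ± 0.72 to -0.04.

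The other probe sets that were more than 1 unit higher on that array included those of Il1a, Il6, the decoy receptor Il1r2, the chemokines Ccl4, Cxcl1 and Ppbp, the neutrophil growth factor Csf3 and its receptor Csf3r, the myeloid lectins Clec4d, Clec4e and Clec4a3, the granule proteoglycan Srgn, and Cx3cr1 and Adgre1. Without the array Il1a went from -0.80 to -0.14, Ccl4 from -0.71 to -0.18, Il1r2 from -0.71 to 0.01, Srgn from -0.70 to 0.04, Clec4d from -0.67 to 0.18 and Csf3r from -0.47 to 0.02. Ccl12, a monocyte chemokine, differed by -0.75 ± 0.34 with all arrays and by -0.73 without it. It was read at 7.33, 7.25 and 7.66 against 8.20, 8.08 and 8.21, groups that did not overlap, and did not pass (limma adjusted p = 0.387). Tm1G3 replicate 3 was itself highest in Cd74, the invariant chain of MHC class II, at 10.32 against 8.79 or less, and in Cxcl9, an interferon-induced chemokine, at 6.16 against 4.69 or less.

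**Figure D3:**
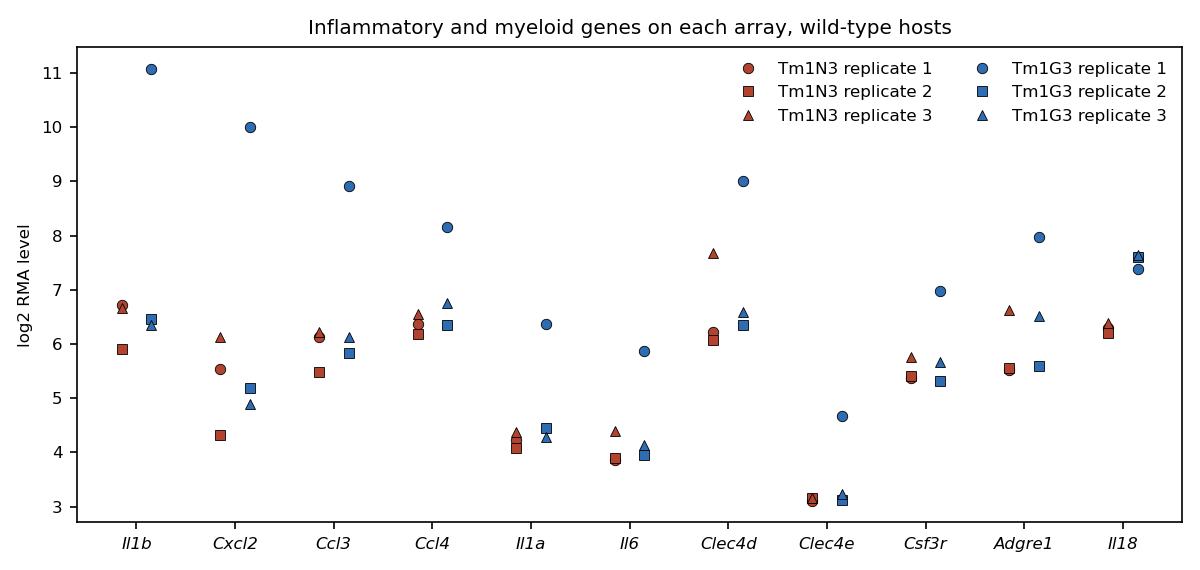
Log2 RMA levels (vertical axis) of inflammatory and myeloid genes, with Il18 beside them, on the 6 arrays of wild-type hosts, with a colour for each line and a symbol for each replicate. Tm1G3 replicate 1 lies highest for each gene but Il18, at 11.08 for Il1b with the other 5 arrays between 5.92 and 6.71.

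Gene lists of the immune system moved with the same array and also with others. Of 30 chemokines 23 had negative differences with a median of -0.09, and without Tm1G3 replicate 1 the count was 17 and the median -0.03. Of 18 genes of the interleukin 1 and 18 family 16 had negative differences (median -0.05), and 11 without it (median -0.04). Other arrays moved these medians farther. The chemokine median was -0.24 without Tm1G3 replicate 2 and -0.16 without Tm1N3 replicate 3. The interleukin 1 and 18 median was -0.15 without Tm1N3 replicate 3. In knockout hosts 22 of the 30 chemokines had negative differences (median -0.09), and 8 of the 18 interleukin 1 and 18 genes (median 0.02). Over all probe sets 49.5% of differences were negative in wild-type hosts. Il18 was the only call of those lists, against 0.883% called over all probe sets. The 4 neutrophil markers measured of 12 listed (Cxcr2, Csf3r, Clec4d and Clec4e) had mean levels of 4.81 to 5.39 in Tm1N3 and of 6.59, 4.85 and 4.99 in Tm1G3. Their median difference was -0.50 with all arrays and 0.10 without replicate 1. The 5 macrophage markers measured of 12 had mean levels of 6.83, 6.78 and 7.78 in Tm1N3 and 7.70, 6.87 and 7.59 in Tm1G3. Of these 5 markers 4 had negative differences, with a median of -0.21, and Clec10a had 0.28 ± 0.53. The median was -0.01 without Tm1N3 replicate 1 and -0.52 without Tm1N3 replicate 3. Without Tm1G3 replicate 1 it was -0.15. There 4 markers were negative but not the same 4, as Siglec1 turned to 0.08 and Clec10a to -0.06. Adgre1 (F4/80) and Csf1r, the receptor for CSF-1, had differences of -0.80 ± 0.62 and -0.51 ± 0.54 that became -0.15 and -0.22 without that array. The part of these markers in the other results was not tested.

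No marker of another cell type was called, against 0.883% of all probe sets. The mean levels of 4 T and NK cell markers measured of 15 lay at 4.53 to 4.82 in Tm1N3 and 4.69 to 5.03 in Tm1G3. Ccl5 was the farthest of them, at 8.42, 7.78 and 8.16 against 8.42, 8.69 and 8.85 (-0.53 ± 0.17, limma adjusted p = 0.168), while Klrk1 stayed at 2.98 to 3.29, among the dimmest probe sets. Of 8 dendritic cell markers 6 were measured, with mean levels of 4.63 to 4.72 in Tm1N3 and 4.53 to 4.85 in Tm1G3, and of 5 B cell markers Cd22 alone, at 5.70 to 6.11 on the 6 arrays. Of 10 endothelial markers 4 were measured, with mean levels of 7.35 to 7.64 and 7.28 to 7.58. Of 11 fibroblast markers 4 were measured, at 6.89, 6.88 and 7.97 in Tm1N3 and 7.45, 6.92 and 7.58 in Tm1G3, so that replicates 3 of both lines and replicate 1 of Tm1G3 were the high ones. Lgals7, the sole keratinocyte marker measured of 9, was at 7.75, 7.81 and 7.56 against 7.04, 7.05 and 7.29 (0.58 ± 0.21, limma adjusted p = 0.24).

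Among the 9 galectins none was called, with 5 positive and 4 negative differences. Apart from Lgalsl and Lgals7, the farthest were Lgals9 at -0.57 ± 0.29 and Lgals4 at 0.47 ± 0.21. Lgals9 was at -0.92 without Tm1G3 replicate 1 (limma adjusted p = 0.106), farther from 0 than Lgalsl. Of the 7 angiogenic factors and receptors none was called either, and 3 had arrays that did not overlap, against 0.883% called and 16.9% not overlapping over all probe sets. Vegfa, the main endothelial growth factor, was at 10.16, 9.54 and 9.51 in Tm1N3 and 8.92, 9.44 and 8.99 in Tm1G3, a difference of 0.62 ± 0.22 (limma adjusted p = 0.229). Angpt2, which destabilises vessels, differed by 0.44 ± 0.15 and Vegfc, a lymphatic growth factor, by 0.26 ± 0.07. These 3 genes were higher on each Tm1N3 array than on any Tm1G3 array.

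The remaining lists had medians close to 0 too. The 12 Notch genes had a median of 0.09, with the ligands Jag1 at 0.35 ± 0.19 and Dll1 at 0.34 ± 0.11, and no call. The 26 fibroblast growth factors and receptors had a median of 0.01. Fgf21 had the lowest value there at -0.90 ± 0.59, with readings of 6.57, 5.65 and 5.43 against 5.35, 7.82 and 7.18. The overlap came from Tm1G3 replicate 1, the array that stood apart, and without it the difference was -1.62 (limma adjusted p = 0.117). Of 7 adhesion genes Mcam, a melanoma cell adhesion molecule, was highest at 0.75 ± 0.21, at 10.65, 10.63 and 10.49 against 10.23, 9.76 and 9.54 (limma adjusted p = 0.127). Without Tm1G3 replicate 1 its difference was 0.94 (limma adjusted p = 0.0758). The 22 proteoglycan core proteins had a median of -0.03, the 53 C-type lectins, selectins and collectins 0.01, the 9 siglecs -0.01 and the 21 nucleotide sugar transporters 0.01, all without a call. Over all probe sets 0.883% were called.

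**Figure D4:**
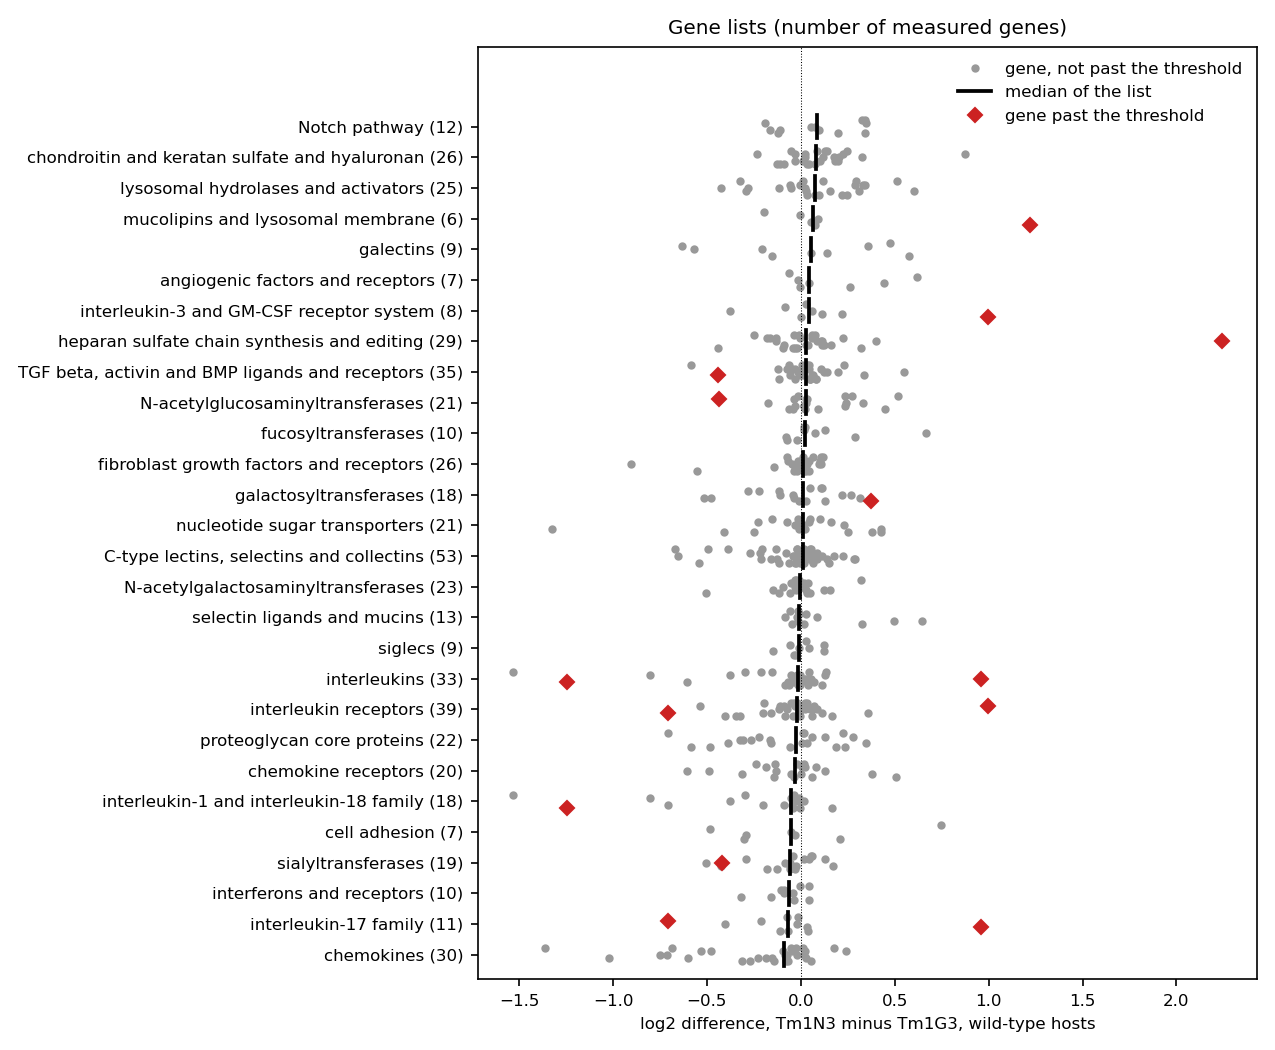
Log2 differences in wild-type hosts (Tm1N3 minus Tm1G3, horizontal axis) of the measured genes of each list, with points for genes, a mark for the list's median and called genes coloured. Medians lie between -0.09 for chemokines and 0.09 for the Notch pathway in lists of 7 or more genes.

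The same line comparison in knockout hosts shares no arrays with this one, so the differences themselves come from separate arrays. Both comparisons came from the same fit, however, and each probe set had the same SE in both hosts. The p-values of the hosts are thus not independent of each other. In knockout hosts 9 of 1246 probe sets passed (0.722%), 2 higher (0.161%) and 7 lower (0.562%) in Tm1N3. An unadjusted p below 0.05 was found for 118 (9.47%). Il18 differed by -1.15 ± 0.11 (limma adjusted p = 0.000618) beside -1.25 in wild-type hosts, with readings of 6.43, 6.28 and 6.25 in Tm1N3 and 7.29, 7.43 and 7.71 in Tm1G3. Frem1 was at 3.73, 3.83 and 3.75 against 4.72, 4.51 and 4.75 there, a difference of -0.89 (limma adjusted p = 0.000618). Il17rd at -0.92 ± 0.13, Il3ra at 0.90 and B3galt4 at 0.34 also passed in knockout hosts (limma adjusted p = 0.00668, 0.031 and 0.0472). The rest that passed there were Havcr2 at -0.51, Kit at -1.55, Slc35f1 at -1.98 and Il17rc at -0.50 (limma adjusted p = 0.00508, 0.00635, 0.0135 and 0.0408). These genes did not pass in wild-type hosts, where their differences had the same sign. The other 6 genes called in wild-type hosts had the same sign in knockout hosts without passing. Among them was Hs3st1 at 1.54 ± 0.37, read at 5.29, 6.80 and 5.88 against 4.55, 4.44 and 4.37.

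No probe set passed the test of whether the line difference itself differed between hosts (limma, smallest adjusted p 0.996), and without adjustment 35 fell under 0.05 (2.81%). Mcoln3 differed by 1.22 in wild-type and 0.64 ± 0.18 in knockout hosts (unadjusted p = 0.0427 for the difference, limma), where its arrays read 8.74, 8.54 and 8.26 against 8.07, 7.83 and 7.72. Il17b differed by 0.96 and 0.39 ± 0.17 (unadjusted p = 0.0408, limma), with 9.52, 9.90 and 9.56 against 9.38, 9.27 and 9.16 in knockout hosts. Neither gene passed after adjustment. The 5 named genes with the smallest p in this test were Igfbp4, Kit, Asah1, Cd72 and Rpn1. Cd72 had 0.78 in wild-type and 0.06 in knockout hosts, Igfbp4 had 0.33 and -0.05, and Asah1, a lysosomal ceramidase, had 0.33 and -0.03. Kit, the receptor for stem cell factor, was at 5.91, 6.07 and 5.62 in Tm1N3 and 6.20, 6.36 and 6.35 in Tm1G3 of wild-type hosts, a difference of -0.44 ± 0.21 beside -1.55 ± 0.21 in knockout hosts. Rpn1, a subunit of the oligosaccharyltransferase, had 0.18 and -0.48.

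**Figure D5:**
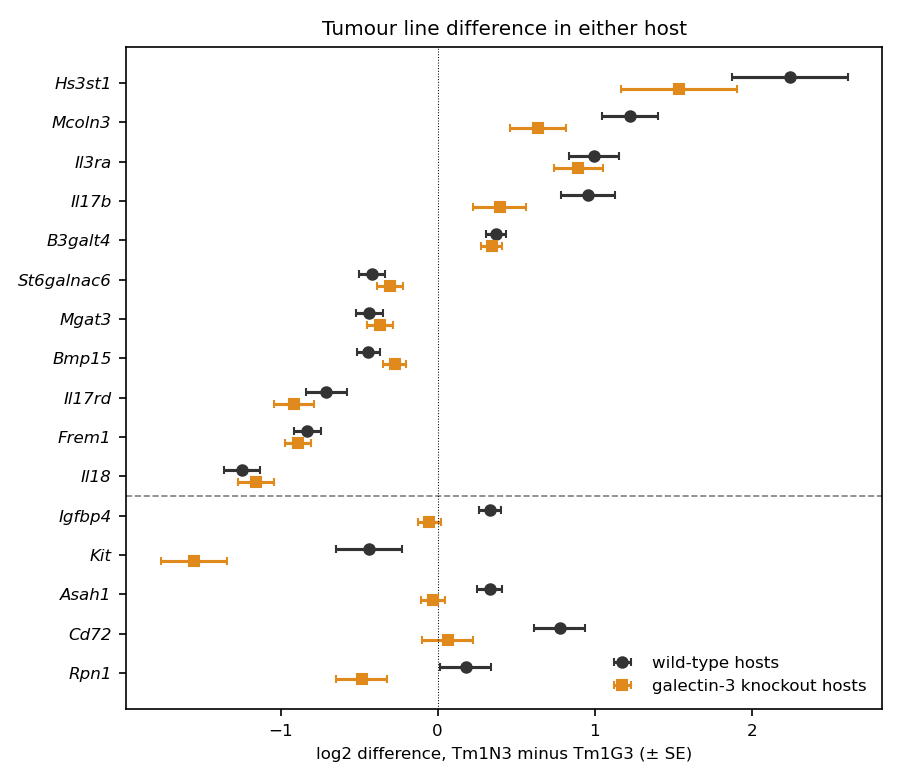
Log2 differences between the lines (Tm1N3 minus Tm1G3, horizontal axis) with their SE in wild-type and in knockout hosts, for the 11 called genes above the dashed line and the 5 with the smallest p between hosts below it. All 11 called genes lie on the same side of 0 in both hosts, Il18 at -1.25 and -1.15 and Mcoln3 at 1.22 and 0.64.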

How the data were processed

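Per the labels' protocols, Trizol-extracted total RNA was made into biotin-labelled cRNA by an Affymetrix method. The authors deposited log2 values made with RMA, per the submitters' processing notes, which give no version. The values were used as deposited. The deposited table was set against the labels' titles to group the 12 arrays, 3 to each of 4 groups of line and host.

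Probe sets were named through the RefSeq accession in their names: 963 of 1246 matched 1 symbol each, for 909 symbols, and 283 stayed unnamed. A suffix on 366 says that the probes can match more than 1 transcript or a similar sequence, those of Il18, Hs3st1, Bmp15 and Lgals3 among them. Of genes with several probe sets, 48 in all, the brightest stands for the gene in lists.

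All 12 arrays entered a limma 3.58.1 fit (lmFit, eBayes; R 4.3.3) with a mean for each of the 4 groups (8 residual and 2.39 prior degrees of freedom), with Benjamini-Hochberg adjustment over 1246 probe sets and a threshold of 0.05. Errors are SD for levels and moderated SE for differences. The procedure was tested on simulated data. Named are all symbols past the threshold, the 20 next by p whose arrays did not overlap, Lgals3, up to 4 genes a list with the largest differences, cell type markers and the 5 with the smallest p between hosts. A gene among those high on 1 array is not reported here. Members and lists were chosen with earlier results of these data known.

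Replicate numbers of the lines within wild-type hosts correlated at 0.00808, 0.544 and 0.269 in their deviations from group means, so they were not taken as pairs. Same-numbered arrays of the hosts correlated at 0.184 to 0.752 within Tm1N3 and 0.249 to 0.308 within Tm1G3. All were above 0.1, and the hosts were treated as pairs in an alternative with a random block. Other alternatives were the wild-type arrays alone, quantile normalization again, median centring, leaving out the dimmest 25% of probe sets, an intensity trend with robust fitting, pairing the lines by number and leaving out each array. Promoters come from RefSeq, build GRCm38.p6, matched by symbol for 9 of the 11 called genes. The array's type and build are not given in the sources used here.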

Additional observations from a re-analysis of the deposited data

How the results depend on the processing

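The 11 calls of the line comparison in wild-type hosts became 3 in a fit of the 6 wild-type arrays alone (2 of them among the 11, Il18 and Frem1), 6 with each array centred on its median (all among the 11) and 4 with a replicate block that paired the lines within a host (Il18, Frem1, Mcoln3 and Il3ra). Leaving out each array in turn gave 2 calls at the lowest, without Tm1G3 replicate 3, and 21 at the highest, without knockout-host Tm1N3 replicate 3. A random replicate block that paired the hosts within a line gave 15 calls, the 11 among them. Quantile normalization again gave 15, with 8 of the 11, the test without the dimmest 25% of probe sets gave 13 and the intensity trend with robust fitting gave 9. The test between hosts gave 0 calls under each setting that allowed it, with the smallest limma adjusted p from 0.751 to 0.999. The Lgals3 difference stayed between 0.15 and 0.54.

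Among the genes that the naming rule takes in, 36 values of 23 genes changed sign, and none of these genes was a call. For 34 values this was with 1 array left out, and for Ifng (0.0088) and Flt3 (0.0025) it was also with quantile normalization again. The lowest and highest values over the 12 fits were -2.34 and 0.028 for Il1b, -2.26 and 0.29 for Cxcl2, -1.17 and 0.040 for Srgn, -1.23 and 0.0057 for Il1r2, -0.77 and 0.099 for Csf2rb, -1.18 and 0.18 for Clec4d, and -0.80 and 0.024 for Csf3r. They were -0.22 and 0.61 for Sulf1, -0.21 and 0.012 for Fut10, -0.22 and 0.0041 for Ifnl3, -0.10 and 0.013 for Vegfb, -0.245 and 0.078 for Siglec1, -0.52 and 0.023 for Mrc1, -0.063 and 0.73 for Clec10a, and -0.20 and 0.52 for Lum. They were -0.37 and 0.25 for Cxcr2, -0.21 and 0.074 for Cd2, -0.13 and 0.078 for Cd22, -0.037 and 0.028 for Flt3, -0.053 and 0.076 for Ifng, -0.094 and 0.090 for Ly75, -0.52 and 0.12 for Pdgfra, and -0.035 and 0.15 for Pdgfrb. Of the other values for single genes and list medians 2702 were counted as the same, 13 as moved, 83 lost a call and 36 gained it. List medians that changed sign fall within these counts, not within those of the 23 genes above. The cause of these changes was not tested. Medians of gene lists lie so near 0 that single arrays turned some of them: galectins went to -0.06 without Tm1N3 replicate 1, heparan sulfate genes to -0.03 without Tm1G3 replicate 3, and angiogenic genes to -0.03 without Tm1G3 replicate 2 and 0.18 without Tm1N3 replicate 2. Signal over background was not used here, so low levels such as those of Bmp15 have no stated detection limit.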
